A study of Mus musculus with 4 samples.

Results

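Voltage-gated potassium channel genes were followed in neurons of the mouse dorsal root ganglion (DRG) after nerve injury. The genes described are 51 of the 31053 genes in the count tables, with symbols that begin with *Kcna*, *Kcnb*, *Kcnc*, *Kcnd*, *Kcne*, *Kcnf*, *Kcng*, *Kcnh*, *Kcnip*, *Kcnq*, *Kcns*, or *Kcnv*. Of these, 8 were Kv1 genes (*Kcna*), 3 Kv beta genes (*Kcnab*), 1 a Kv2 gene (*Kcnb2*), 10 electrically silent subunits (*Kcnf*, *Kcng*, *Kcns*, and *Kcnv*), 3 Kv3 genes (*Kcnc*), 3 Kv4 genes (*Kcnd*), 4 KChIP genes (*Kcnip*), 3 Kv7 genes (*Kcnq*), 5 *Kcne* genes, and 8 genes of the EAG group (*Kcnh*). The remaining 3, *Kcnd3os*, *Kcnq1ot1*, and *Kcnab3os*, are non-coding transcripts that the prefixes also matched.

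Voltage-gated potassium channels are tetramers that open on depolarization and carry the outward current that repolarizes the action potential. The Kv1, Kv2, Kv3, Kv4, Kv7, and EAG families supply pore-forming subunits, the silent subunits join Kv2 subunits and do not form channels by themselves, and the Kv beta, KChIP, and *Kcne* proteins are auxiliary. In sensory neurons these channels set the resting potential, the firing threshold, the width of the spike, and the rate of repetitive firing, and potassium channel transcripts are long known to fall in the DRG after nerve injury.

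The data were 4 scRNA-seq libraries, a male and a female library of each surgery (Male-Sham and Female-Sham, Male-CCI and Female-CCI). All mice were *PirtEGFPf* mice of C57BL/6 background, heterozygous for a farnesylated EGFP that replaces the reading frame of *Pirt* and is driven by the *Pirt* promoter, and were 7 to 8 weeks old. Both sciatic nerves were loosely tied (chronic constriction injury, CCI) or the mice had sham surgery, L4-5 DRGs were taken on day 7, and GFP+ cells were sorted. Each library pooled 20 DRGs of 5 mice, so the spread between mice is not measured, and male and female littermates had the same surgery, so that litter follows surgery and cannot be told apart from it. All groups, sham included, therefore carry 1 disrupted *Pirt* allele, and the sort keeps cells in which the *Pirt* promoter is or was active.

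Filters left 15715 cells, of which 2817 to 5398 per library were neurons, with 159902783 to 189489772 unique molecular identifiers (UMIs) in neurons and a median of 32490 to 56457 UMIs per neuron. Neurons were called *Sprr1a*+ where *Sprr1a*, a gene known to be switched on in axotomized neurons, had a normalized value above 1. These were 42 (1.28%) and 144 (2.67%) of the neurons in Male-Sham and Female-Sham and 1467 (52.1%) and 1789 (49.2%) in Male-CCI and Female-CCI. Of the *Sprr1a*+ neurons of the CCI libraries, 1227 and 1525 lay in 5 clusters named CCI-ind-like, which hold few sham cells. The other clusters were named from marker genes as NF1- and NF2-like (large neurofilament neurons), NP1-, NP2-, and NP3-like (nonpeptidergic neurons), PEP1-, PEP2-, PEP3/4-, and PEP5-like (peptidergic neurons), and cLTMR-like (C-fiber low-threshold mechanoreceptors). Cluster 22, with 91, 102, 40, and 30 cells, had no class from these markers and all 7 markers of satellite glial cells, and was kept among the neurons without a name. The libraries shared cell barcodes: 1085 barcodes occurred in more than 1 library, which were 5.75% to 14.4% of the deposited barcodes of a library. Counts of called members over the neurons and some calls of single genes are given with and without these cells. Without them 18 calls of single genes were lost over all comparisons, and not all of these are given. The summed level of 7 satellite glial cell (SGC) markers in all neurons was 1352 and 1678 UMIs per 1000000 (CPM) in the sham and 916 and 1118 CPM in the CCI libraries, with no marker at 0. SGC-like cells held 111922 to 137985 CPM of them.

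Levels below are UMIs of a gene per 1000000 UMIs of the summed cells (CPM). Where 4 values are given, those of Male-Sham and Female-Sham come first and those of Male-CCI and Female-CCI after them. The libraries count the 3′ ends of transcripts, so CPM has no term for gene length, and levels are compared between cell groups rather than between genes. Changes are log2 fold changes with their standard error (SE) and Benjamini-Hochberg adjusted p, from the quasi-likelihood test of edgeR on UMI sums of 2 CCI and 2 sham libraries. They use TMM scaling, so that they need not equal the ratio of the printed CPM. On the plain CPM scale the median log2 ratio of all genes was -0.07 over all neurons and down to -0.28 for *Sprr1a*+ neurons, and no called member had the other sign there. A gene was called where the adjusted p was below 0.05 and the absolute change above 0.5.

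All 51 genes had at least 1 UMI in the neurons of every library, and in *Sprr1a*- neurons of the sham libraries their levels differed widely between subtypes. Among the named classes, to which all orders of levels below refer, the highest level lay in NF1-like neurons for 16 genes, in NF2-like for 10, in cLTMR-like for 8, in NP1-like and PEP3/4-like for 4 each, in NP2-like and PEP5-like for 3 each, in PEP2-like for 2, and in PEP1-like for 1. For 5 genes the highest class had at least 3 times the level of the next and at least 20 CPM: *Kcna1*, *Kcnq3*, and *Kcns1* in NF1-like, *Kcnd3* in cLTMR-like, and *Kcnh8* in PEP5-like neurons. In the unnamed cluster 22 the mean of 9 genes was higher than in any named class, among them *Kcne4* at 23.7 and 22.0 CPM, *Kcnf1* at 17.7 and 24.8 CPM, *Kcna4* at 103 and 79.6 CPM, and *Kcnc2* at 107 and 98.8 CPM. These levels are a description, since most of these genes were among the 3000 genes on which the cells were clustered.

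**Figure D1:**
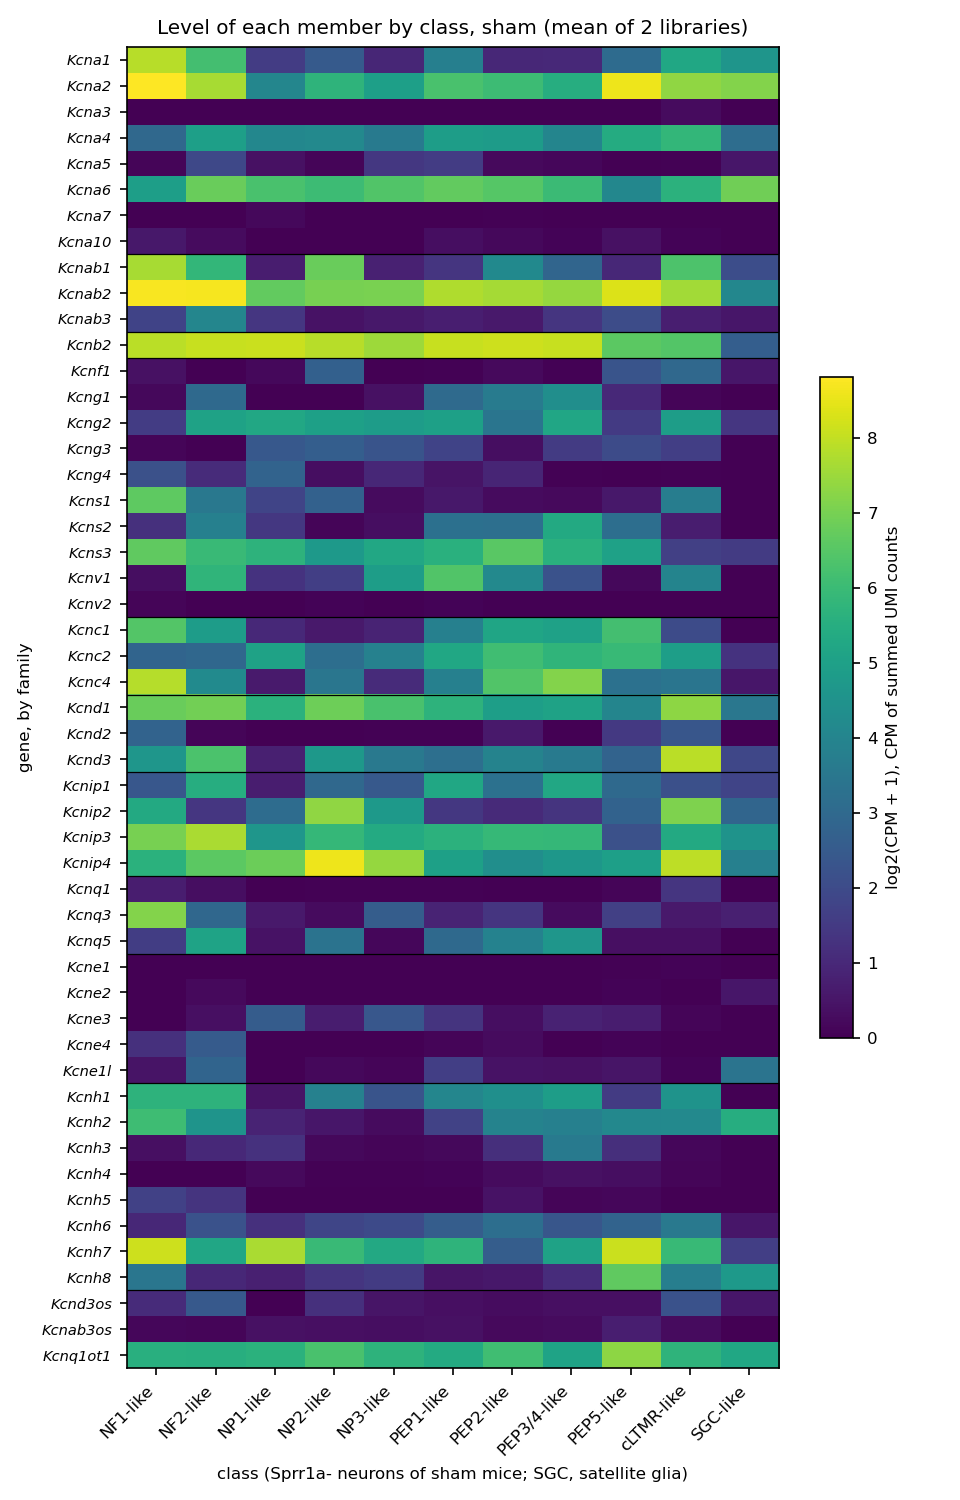
Mean level of each member in *Sprr1a*- neurons of the 2 sham libraries by class and in SGC-like cells. Rows are genes by family, columns are classes, and color is log2(CPM + 1), and *Kcna1*, *Kcnq3*, and *Kcns1* stand out in NF1-like, *Kcnd3* in cLTMR-like, and *Kcnh8* in PEP5-like neurons.

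Among Kv1 genes, *Kcna1* encodes a low-threshold subunit found beside the nodes of myelinated axons. It was at 233 and 235 CPM in NF1-like neurons of Male-Sham and Female-Sham, against 65.6 and 75.3 CPM in NF2-like neurons, the next class. *Kcna2*, its usual partner, was at 454 and 439 CPM in NF1-like and 407 and 360 CPM in PEP5-like neurons, and lowest, at 17.1 and 14.0 CPM, in NP1-like neurons. *Kcna4*, an A-type subunit of small neurons, had the other order: 54.4 and 57.5 CPM in cLTMR-like neurons and 7.11 and 6.79 CPM in NF1-like neurons. *Kcna6* reached 107 and 112 CPM in NF2-like neurons. The Kv beta gene *Kcnab2* was at 420 and 417 CPM in NF1-like and 427 and 387 CPM in NF2-like neurons, which did not differ beyond the spread of the libraries. *Kcnab1*, another beta subunit, ranged from 197 and 200 CPM in NF1-like to 0.519 and 0.716 CPM in NP1-like neurons.

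Kv2 genes encode the delayed rectifiers of the soma. *Kcnb2* was at 281 and 273 CPM in PEP2-like and 286 and 258 CPM in NP1-like neurons, and lowest in cLTMR-like neurons, at 87.0 and 83.9 CPM. Of the silent subunits, *Kcns1* was at 101 and 93.5 CPM in NF1-like neurons and at 12.8 and 11.8 CPM in cLTMR-like neurons, the next class. *Kcns3* was at 99.6 and 101 CPM in NF1-like and 101 and 85.8 CPM in PEP2-like neurons and at only 2.04 and 2.37 CPM in cLTMR-like neurons. *Kcnv1* was highest in PEP1-like neurons, at 85.0 and 84.8 CPM, and *Kcng2* in NP1-like neurons, at 41.5 and 33.6 CPM. The silent subunits that join Kv2 thus had their highest levels in different classes.

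*Kcnc4*, a Kv3 gene for a fast-inactivating current, was at 231 and 224 CPM in NF1-like, 162 and 125 CPM in PEP3/4-like, and 0.778 and 0.358 CPM in NP1-like neurons. *Kcnc1* was at 102 and 73.0 CPM in NF1-like neurons, while *Kcnc2* was at 71.0 and 66.1 CPM in PEP2-like and 6.03 and 6.11 CPM in NF1-like neurons. Kv4 genes carry the somatic A-type current. *Kcnd3* was at 244 and 235 CPM in cLTMR-like neurons, above 78.1 and 77.8 CPM in NF2-like neurons, and *Kcnd1* at 155 and 160 CPM in cLTMR-like neurons and 14.4 and 15.5 CPM in PEP5-like neurons. The KChIPs are calcium-binding partners of Kv4. *Kcnip4* was at 392 and 377 CPM in NP2-like and 20.0 and 18.9 CPM in PEP2-like neurons, and *Kcnip2* at 163 and 159 CPM in NP2-like and 140 and 133 CPM in cLTMR-like neurons. *Kcnip3* was at 208 and 198 CPM in NF2-like and 3.07 and 4.10 CPM in PEP5-like neurons. *Kcnip1* stayed between 36.6 and 46.1 CPM in NF2-, PEP3/4-, and PEP1-like neurons.

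*Kcnq3* encodes a subunit of the M current, which opposes repetitive firing. It was highest in NF1-like neurons, at 134 and 155 CPM, with 5.47 and 8.07 CPM in NF2-like neurons. *Kcnq5* was at 35.9 and 30.5 CPM in NF2-like neurons. In the EAG group, the erg-type gene *Kcnh7* was at 269 and 287 CPM in NF1-like, 273 and 271 CPM in PEP5-like, 234 and 179 CPM in NP1-like, and 5.26 and 4.98 CPM in PEP2-like neurons. The elk-type gene *Kcnh8* was at 107 and 92.0 CPM in PEP5-like neurons, above 13.4 and 11.6 CPM in cLTMR-like neurons. *Kcnh1* and *Kcnh2* were highest in large neurons, *Kcnh1* at 53.5 and 47.6 CPM in NF2-like and *Kcnh2* at 70.3 and 61.3 CPM in NF1-like neurons. *Kcne* transcripts were scarce: over all sham neurons the highest, *Kcne3*, was at 0.943 and 1.03 CPM.

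Over all neurons, potassium channel genes were lower in CCI than in sham. Of 46 members tested, 27 were called lower (58.7%, against 12.7% of the 17232 genes tested) and 3 higher (6.52%, against 15.2%). The median change of the members was -0.66, and that of all genes -0.01. For 42 of the 46 the CCI and sham libraries did not overlap. The share of all genes for which this held is not given here, so this count has no background to be read against. In these sums, fewer neurons of a type and less of a transcript per neuron cannot be told apart. The *Sprr1a*+ neurons were also set against the *Sprr1a*- neurons within each CCI library, with the library as a block. There 34 of 45 members tested were called lower (75.6%, against 24.7% of 16240 genes) and 4 higher (8.89%, against 20.9%), with a median change of -1.85 against -0.0006 for all genes. Most *Sprr1a*+ neurons lay in CCI-ind-like clusters and most *Sprr1a*- neurons in the named classes. Here too, a different mix of types and less of a transcript per neuron cannot be told apart. Both comparisons use the CCI libraries, so they are not independent. *Kcna3*, *Kcna7*, *Kcne1*, *Kcne2*, and *Kcnv2* had too few UMIs to be tested in either, at 0.00528 to 0.0563 CPM over all neurons, and *Kcna10* in the second. Without barcodes held by another library, 26 were lower and 3 higher over all neurons, and 33 lower and 2 higher between *Sprr1a*+ and *Sprr1a*- neurons. Without the clusters that hold satellite glial markers the counts were 26 and 3, and 34 and 4.

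**Figure D2:**
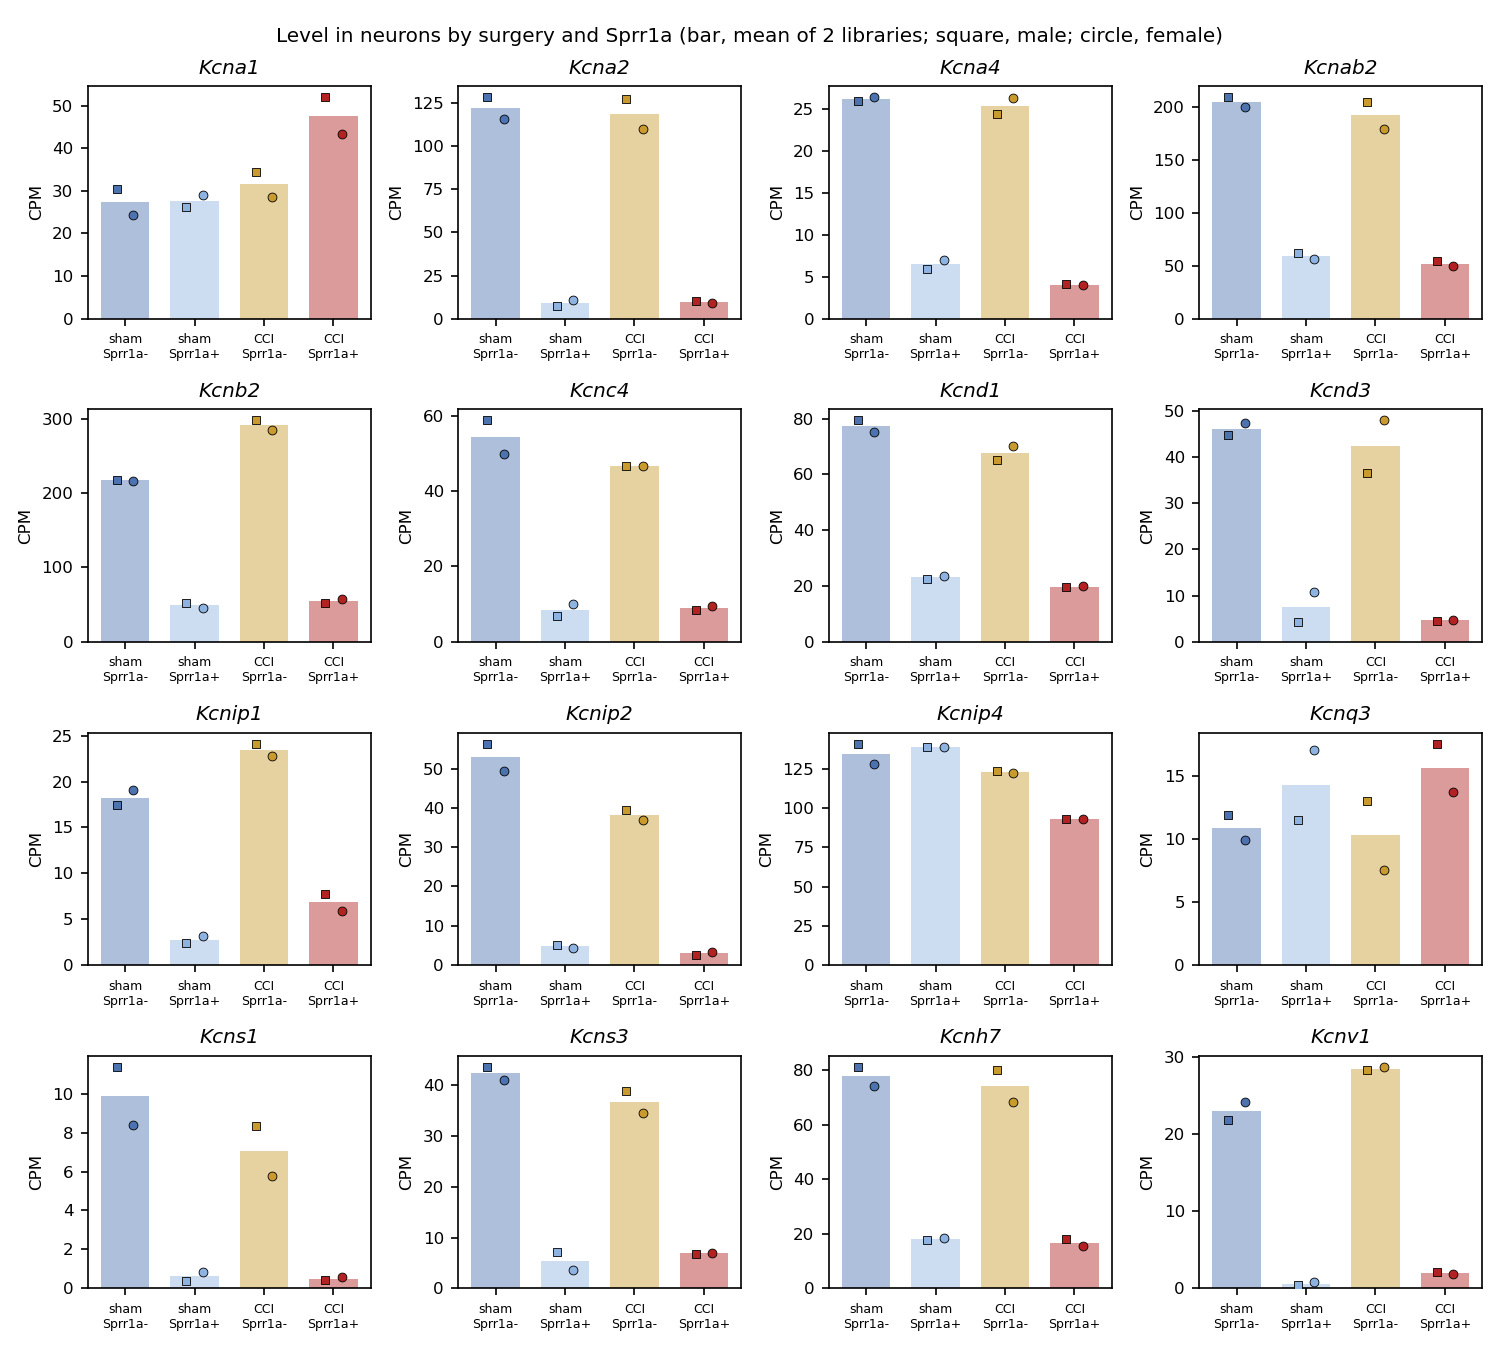
Level of 16 members (CPM) in *Sprr1a*- and *Sprr1a*+ neurons of sham and CCI, with bars for the mean of 2 libraries, squares for male, and circles for female libraries. *Kcna2* lay between 110 and 129 CPM in *Sprr1a*- neurons of both surgeries and between 7.14 and 10.6 CPM in *Sprr1a*+ neurons, while *Kcna1* was higher in *Sprr1a*+ than in *Sprr1a*- neurons of CCI.

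*Kcna2*, an abundant gene, was lower in both comparisons. Over all neurons it was at 127, 113, 63.9, and 59.2 CPM, a change of -0.90 (SE 0.069, edgeR adjusted p = 9.39e-05). In *Sprr1a*- neurons of Male-CCI and Female-CCI it was still at 127 and 110 CPM, and in *Sprr1a*+ neurons at 10.1 and 9.12 CPM, a change of -3.45 (SE 0.041, edgeR adjusted p = 1.45e-12). The *Sprr1a*- neurons of CCI thus lay at the level of sham, and the *Sprr1a*+ neurons far below it. *Kcna4* had the same pattern, at 25.6, 25.8, 13.4, and 15.0 CPM over all neurons (change -0.80, SE 0.067, edgeR adjusted p = 0.000128), and at 24.3 and 26.2 CPM in *Sprr1a*- against 4.10 and 3.94 CPM in *Sprr1a*+ neurons of CCI (change -2.48). *Kcna1* went the other way. It was at 30.3, 24.5, 44.0, and 36.0 CPM over all neurons (change 0.60, SE 0.142, edgeR adjusted p = 0.0212), a change that lost its call without Female-Sham (0.46) or Male-CCI (0.45). In CCI, *Kcna1* was at 34.5 and 28.7 CPM in *Sprr1a*- and 52.1 and 43.3 CPM in *Sprr1a*+ neurons (change 0.77, edgeR adjusted p = 1.77e-08), and with barcodes held by another library left out the change was 1.37 and no longer called (edgeR adjusted p = 0.164). *Kcna6* moved little, by -0.15 over all neurons and -0.40 between *Sprr1a*+ and *Sprr1a*- neurons, and was called in neither. *Kcna10*, at 0.123, 0.164, 0.0799, and 0.050 CPM, was called lower over all neurons (change -1.09, edgeR adjusted p = 0.0453) and lost the call without any 1 of the 4 libraries, with edgeR adjusted p between 0.0615 and 0.225.

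Of the Kv1 genes, *Kcna3* (chr3:107036169-107038070), *Kcna2* (chr3:107101146-107115005), and *Kcna10* (chr3:107183056-107195721) stand side by side on mouse chromosome 3 in GRCm38 (GENCODE), with *Kcnc4* (chr3:107438303-107459552) in the same stretch. *Kcna5* (chr6:126532551-126535412), *Kcna1* (chr6:126640397-126646384), and *Kcna6* (chr6:126708329-126740674) are neighbours on chromosome 6. *Kcna2* and *Kcnc4* were both lower in *Sprr1a*+ neurons, whereas of the chromosome 6 genes *Kcna1* was higher, *Kcna5* lower (0.697 and 0.681 against 0.125 and 0.136 CPM, change -2.21, edgeR adjusted p = 8.08e-05, but 0.065 and not called with any *Sprr1a* UMI as the limit), and *Kcna6* not called. Neighbouring genes therefore did not all move in 1 direction.

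All 3 Kv beta genes were lower in *Sprr1a*+ than in *Sprr1a*- neurons, and 2 of them over all neurons. *Kcnab2* was at 207, 195, 123, and 114 CPM over all neurons (change -0.71, SE 0.060, edgeR adjusted p = 0.000133), and in CCI at 204 and 179 CPM in *Sprr1a*- and 54.0 and 49.8 CPM in *Sprr1a*+ neurons (change -1.71). *Kcnab1* was at 51.8, 43.7, 27.7, and 28.1 CPM over all neurons (change -0.72, edgeR adjusted p = 0.000502), and its change of -1.07 in *Sprr1a*+ neurons became -0.75 and lost its call (edgeR adjusted p = 0.157) without barcodes held by another library. *Kcnab3* was at 1.84 and 1.43 CPM in *Sprr1a*- and 0.670 and 0.695 CPM in *Sprr1a*+ neurons of CCI (change -1.08, edgeR adjusted p = 0.00047). It overlaps *Kcnab3os*, an antisense transcript, and whether the counting used strand is not given in the sources used here. *Kcnab3os* was called in neither comparison (-0.62 and -0.01).

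The Kv2 gene *Kcnb2* was not called over all neurons but was lower in *Sprr1a*+ neurons. It was at 215, 211, 165, and 170 CPM over all neurons (change -0.29), and in CCI at 298 and 285 CPM in *Sprr1a*- and 52.6 and 58.0 CPM in *Sprr1a*+ neurons (change -2.23, SE 0.052, edgeR adjusted p = 1.08e-07). Its *Sprr1a*- neurons thus lay above the sham level while its *Sprr1a*+ neurons lay below.

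The silent subunits, which modify Kv2 currents, had the lowest median of the families in *Sprr1a*+ neurons. Over all neurons 7 of 9 tested were lower, with a median of -0.74, and between *Sprr1a*+ and *Sprr1a*- neurons 8 of 9, with a median of -3.21. *Kcns1* was at 11.2, 8.16, 4.04, and 3.17 CPM over all neurons (change -1.37, SE 0.193, edgeR adjusted p = 0.00312), and at 8.33 and 5.79 CPM in *Sprr1a*- against 0.409 and 0.595 CPM in *Sprr1a*+ neurons of CCI (change -3.64, edgeR adjusted p = 1.17e-05). *Kcng1* hardly differed over all neurons, at 5.05, 6.64, 4.30, and 7.85 CPM (change 0.11, SE 0.351, edgeR adjusted p = 0.82), yet had the lowest change of all members in *Sprr1a*+ neurons, from 9.27 and 15.6 CPM to 0.0795 and 0.236 CPM (change -6.13, SE 0.158, edgeR adjusted p = 1.52e-10). The all-neuron value of *Kcng1* therefore joined a higher level in *Sprr1a*- neurons of CCI with a level near 0 in *Sprr1a*+ neurons. *Kcnv1* was at 21.6, 23.5, 14.1, and 15.2 CPM over all neurons (change -0.56) and at 28.3 and 28.7 against 2.17 and 1.86 CPM in CCI (change -3.64, edgeR adjusted p = 5.07e-11). *Kcns3* was at 43.0, 39.8, 21.5, and 20.7 CPM (change -0.92, edgeR adjusted p = 3.1e-05), and at 38.9 and 34.6 against 6.81 and 7.02 CPM in CCI (change -2.23). *Kcnf1* was at 2.58, 2.15, 1.13, and 1.24 CPM (change -0.94), and at 2.22 and 2.32 against 0.204 and 0.174 CPM in CCI (change -3.40). *Kcng3* was at 2.77 and 2.96 against 0.193 and 0.360 CPM in CCI (change -3.21), and its change over all neurons, -0.66, lost its call without Male-Sham (edgeR adjusted p = 0.0615) or Male-CCI (0.0777). *Kcng2* and *Kcns2* were lower too, by -0.74 and -0.86 over all neurons and by -1.31 and -2.36 in *Sprr1a*+ neurons. The exception was *Kcng4*, which was called in neither comparison (-0.53 and -0.54).

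Of the Kv3 genes only *Kcnc4* was called over all neurons, at 58.0, 48.6, 26.0, and 27.9 CPM (change -0.93, SE 0.085, edgeR adjusted p = 0.00036), and all 3 were lower in *Sprr1a*+ neurons. There *Kcnc4* was at 46.6 and 46.7 against 8.46 and 9.53 CPM (change -2.20, edgeR adjusted p = 1.23e-10), and *Kcnc1* and *Kcnc2* changed by -1.12 and -1.23. All 3 Kv4 genes were called lower in both comparisons. *Kcnd3* was at 44.1, 46.1, 19.3, and 26.2 CPM over all neurons (change -0.93, SE 0.150, edgeR adjusted p = 0.00635), a call that was lost without Male-Sham (edgeR adjusted p = 0.0693), without Female-Sham (0.0631), or without barcodes held by another library (0.0642). In CCI, *Kcnd3* was at 36.6 and 47.9 CPM in *Sprr1a*- and 4.58 and 4.79 CPM in *Sprr1a*+ neurons (change -2.99, edgeR adjusted p = 1.91e-08). *Kcnd3os*, which overlaps *Kcnd3* on the other strand, moved with it, from 1.12 and 1.08 to 0.498 and 0.432 CPM over all neurons (change -1.18, edgeR adjusted p = 0.00103) and by -2.83 in *Sprr1a*+ neurons. *Kcnd1* was at 78.5, 73.7, 40.5, and 44.9 CPM (change -0.78) and at 65.3 and 70.3 against 19.5 and 19.9 CPM in CCI (change -1.61, edgeR adjusted p = 1.31e-10). *Kcnd2*, a minor Kv4 gene here, was at 1.41, 1.07, 0.651, and 0.50 CPM (change -1.04) and at 1.31 and 0.921 against 0.0909 and 0.0868 CPM in CCI (change -3.46). In this family the changes between *Sprr1a*+ and *Sprr1a*- neurons ran from -1.61 to -3.46.

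The KChIP genes, which assist Kv4 channels, were unequal. *Kcnip2* was at 55.6, 47.9, 19.6, and 20.0 CPM over all neurons (change -1.33, SE 0.069, edgeR adjusted p = 2.47e-05), and in CCI at 39.6 and 36.9 against 2.63 and 3.31 CPM (change -3.52, edgeR adjusted p = 1.48e-07). *Kcnip4*, the most abundant of them, was at 141, 129, 107, and 108 CPM (change -0.27) and at 124 and 122 against 93.1 and 93.3 CPM (change -0.23), and was called in neither. *Kcnip3*, which encodes the calcium-binding repressor DREAM, was at 57.8, 55.7, 33.5, and 35.4 CPM (change -0.66, edgeR adjusted p = 4.25e-05) and changed by -1.01 in *Sprr1a*+ neurons. *Kcnip1* was at 17.3, 18.5, 15.3, and 14.3 CPM over all neurons (change -0.22) and at 24.2 and 22.8 against 7.75 and 5.93 CPM in CCI (change -1.61, edgeR adjusted p = 2.03e-07). *Kcnip2* was thus near 0 in the neurons in which *Kcnip4* stayed abundant.

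The Kv7 genes moved in different directions. *Kcnq3*, of the M current, was at 11.9, 10.1, 15.5, and 10.7 CPM over all neurons and was not called (change 0.31, edgeR adjusted p = 0.248; 0.55 and called without Female-CCI). In CCI, *Kcnq3* was at 13.1 and 7.58 against 17.6 and 13.8 CPM (change 0.80, edgeR adjusted p = 0.00127), and without barcodes held by another library at a change of 1.64 that was not called (edgeR adjusted p = 0.0622). *Kcnq5* was at 9.94, 8.53, 4.61, and 6.17 CPM (change -0.72) and at 9.05 and 11.5 against 0.840 and 0.943 CPM (change -3.34, edgeR adjusted p = 8.1e-10). *Kcnq1*, at 0.296, 0.248, 0.123, and 0.106 CPM (change -1.18, edgeR adjusted p = 0.00857), lost its call without Female-CCI (0.0591). The family was thus split in these sums, with *Kcnq3* higher and *Kcnq5* lower in *Sprr1a*+ neurons. The *Kcnq3* call was also lost without the library as a block. Among the CCI-ind-like clusters *Kcnq3* was unequal, at 23.4 and 25.6 CPM in cluster 16 and 1.08 and 1.45 CPM in cluster 17 of Male-CCI and Female-CCI. *Kcnq1ot1*, a long non-coding RNA transcribed antisense to *Kcnq1*, was at 60.3, 59.3, 99.7, and 91.6 CPM over all neurons (change 0.73, edgeR adjusted p = 7.96e-05) and at 82.4 and 77.1 against 114 and 106 CPM in CCI (change 0.64).

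In the EAG group 4 of 8 genes were lower over all neurons and 5 of 8 in *Sprr1a*+ neurons, and *Kcnh4* was higher in both. *Kcnh4*, an elk-type gene (chr11:100740376-100759942), was at 0.129, 0.137, 0.854, and 1.04 CPM over all neurons (change 2.87, SE 0.214, edgeR adjusted p = 7.98e-05), and at 0.134 and 0.429 CPM in *Sprr1a*- against 1.47 and 1.64 CPM in *Sprr1a*+ neurons of CCI (change 2.64, edgeR adjusted p = 0.000157). Its level stayed low, but it had the highest change of the members. *Kcnh7* was at 80.4, 72.5, 46.6, and 41.7 CPM (change -0.73, edgeR adjusted p = 0.000277) and at 80.3 and 68.5 against 18.1 and 15.4 CPM (change -1.98). *Kcnh3*, another elk-type gene, was at 2.53, 2.13, 0.947, and 1.15 CPM (change -1.09, edgeR adjusted p = 0.00113). *Kcnh8* changed by -0.77 over all neurons and -2.05 in *Sprr1a*+ neurons, and *Kcnh2* by -0.60 (-0.49 and not called without Male-Sham) and -1.85. Without barcodes held by another library the change of *Kcnh2* over all neurons was -0.46 and not called. *Kcnh5* was called in neither comparison (0.24 and -0.30). *Kcnh1*, an eag-type gene, was also called in neither comparison, at 23.2 and 21.2 against 15.5 and 14.4 CPM in CCI (change -0.40). Of the auxiliary *Kcne* genes, *Kcne1l* was at 0.826, 0.639, 0.295, and 0.388 CPM over all neurons (change -1.04, edgeR adjusted p = 0.00733), and *Kcne3* at 1.21 and 1.39 against 0.193 and 0.198 CPM in CCI (change -2.54, edgeR adjusted p = 4.86e-06). *Kcne4* had a change of -0.59 over all neurons that lost its call without any 1 library (edgeR adjusted p between 0.0714 and 0.166) and was -0.10 without the clusters that hold satellite glial markers.

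**Figure D3:**
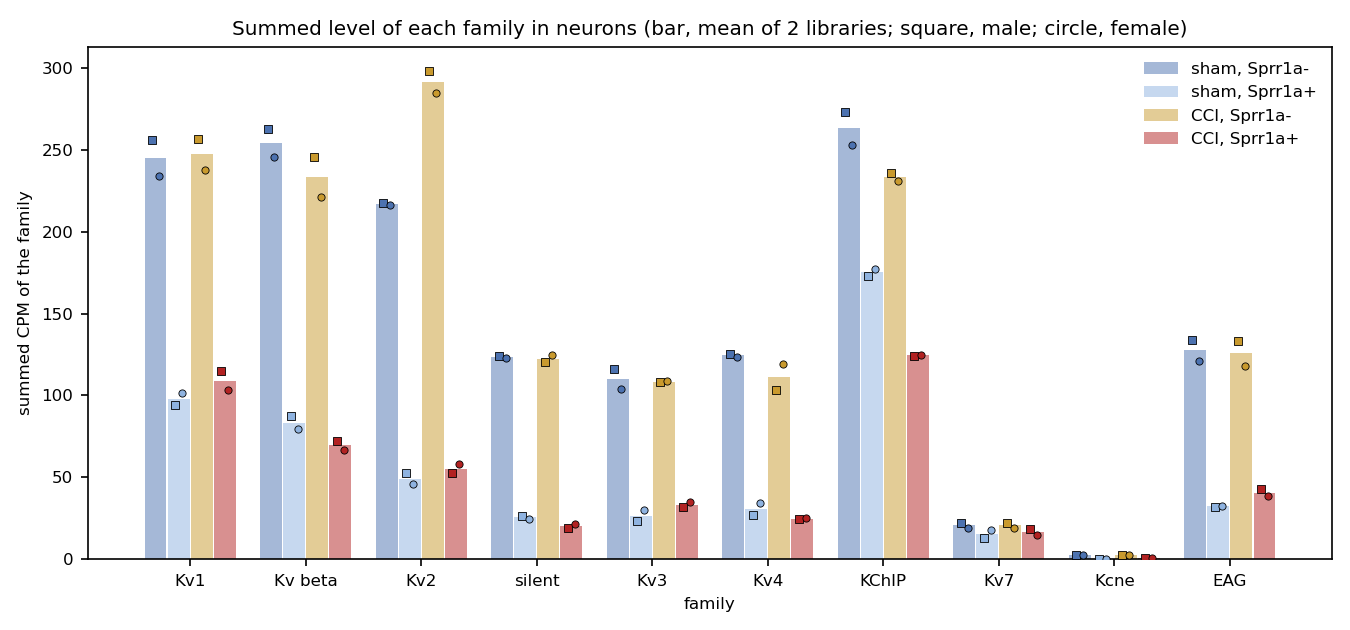
Summed level of the genes described in each coding family (CPM) in *Sprr1a*- and *Sprr1a*+ neurons of sham and CCI, with bars for the mean of 2 libraries, squares for male, and circles for female libraries. Every family lay lower in *Sprr1a*+ than in *Sprr1a*- neurons of all 4 libraries, and the Kv7 sum was 18.96 to 22.3 CPM in *Sprr1a*- and 12.7 to 18.5 CPM in *Sprr1a*+ neurons.

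Summed over a family, the Kv4 genes were at 103 and 119 CPM in *Sprr1a*- neurons of Male-CCI and Female-CCI and at 24.2 and 24.8 CPM in *Sprr1a*+ neurons. The silent subunits were at 120 and 125 against 18.8 and 21.7 CPM. The KChIP sum, carried by *Kcnip4*, was at 236 and 231 against 124 and 125 CPM. Low levels were also found in the few *Sprr1a*+ neurons of the sham libraries. Of 29 members with at least 5 CPM in *Sprr1a*- sham neurons, both *Sprr1a*+ sham sums lay below both *Sprr1a*- sham sums for 25 and above for 1. The 29 were picked by their level in *Sprr1a*- neurons, so genes high only in *Sprr1a*+ neurons could not enter. The count thus leans toward lower values and has no share of all genes beside it. *Kcna2*, for example, was at 129 and 116 CPM in *Sprr1a*- and 7.14 and 10.6 CPM in *Sprr1a*+ neurons of sham, and *Kcnb2* at 218 and 217 against 52.3 and 45.7 CPM. These rest on 42 and 144 neurons and are not tested.

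To narrow the mix of subtypes, *Sprr1a*+ neurons of CCI were compared with *Sprr1a*- neurons of sham within named classes. The classes used kept at least 10 such neurons in every library. In each of them more members were called lower than higher. Of 30 members tested in NF1-like neurons 20 were lower (66.7%, against 23.8% of genes) and 0 higher (21.7% of genes), and the median change was -1.86. The 0 higher is by edgeR, with 0 at an unadjusted p under 0.05 and 0 by DESeq2. Of 32 in NF2-like neurons 26 were lower (81.25%, against 22.4%) and 3 higher (9.375%, against 21.3%), with a median of -1.99. Of 23 in NP1-like neurons 15 were lower (65.2%, against 20.5%) and 6 higher (26.1%, against 21.1%), with a median of -1.05. Of 29 in PEP5-like neurons, which reached the minimum only with clusters at resolution 0.4, 19 were lower (65.5%, against 24.0%) and 3 higher (10.3%, against 22.4%), with a median of -1.53. Among all genes the 4 medians lay between -0.06 and 0.01. The sums hold 148 and 165 sham and 55 and 32 CCI neurons for NF1-like, 77 and 94, and 82 and 85 for NF2-like, and 83 and 71, and 98 and 113 for NP1-like neurons. The NP1-like neurons of sham lay mostly in cluster 25 (82 and 63 cells) and those of CCI mostly in cluster 23 (103 and 123 cells). NF1-like neurons joined cluster 18, with *Ntrk2* among its leading genes, and cluster 27, with *Pvalb*. A class is thus not 1 subtype, and the mix within a class may differ between the groups compared. At resolution 0.4 the PEP5-like sums hold 300 and 532 sham and 149 and 160 CCI neurons. In the main clusters only 4 and 11 *Sprr1a*+ CCI neurons were PEP5-like. There, CCI-ind-like cluster 21 held 149 and 154 CCI cells. Its *Kcna2*, at 25.3 and 23.3 CPM, lay near the 26.7 and 25.3 CPM of the PEP5-like *Sprr1a*+ neurons. Whether these are the same cells was not tested, so the subtype of those PEP5-like neurons is not established.

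**Figure D4:**
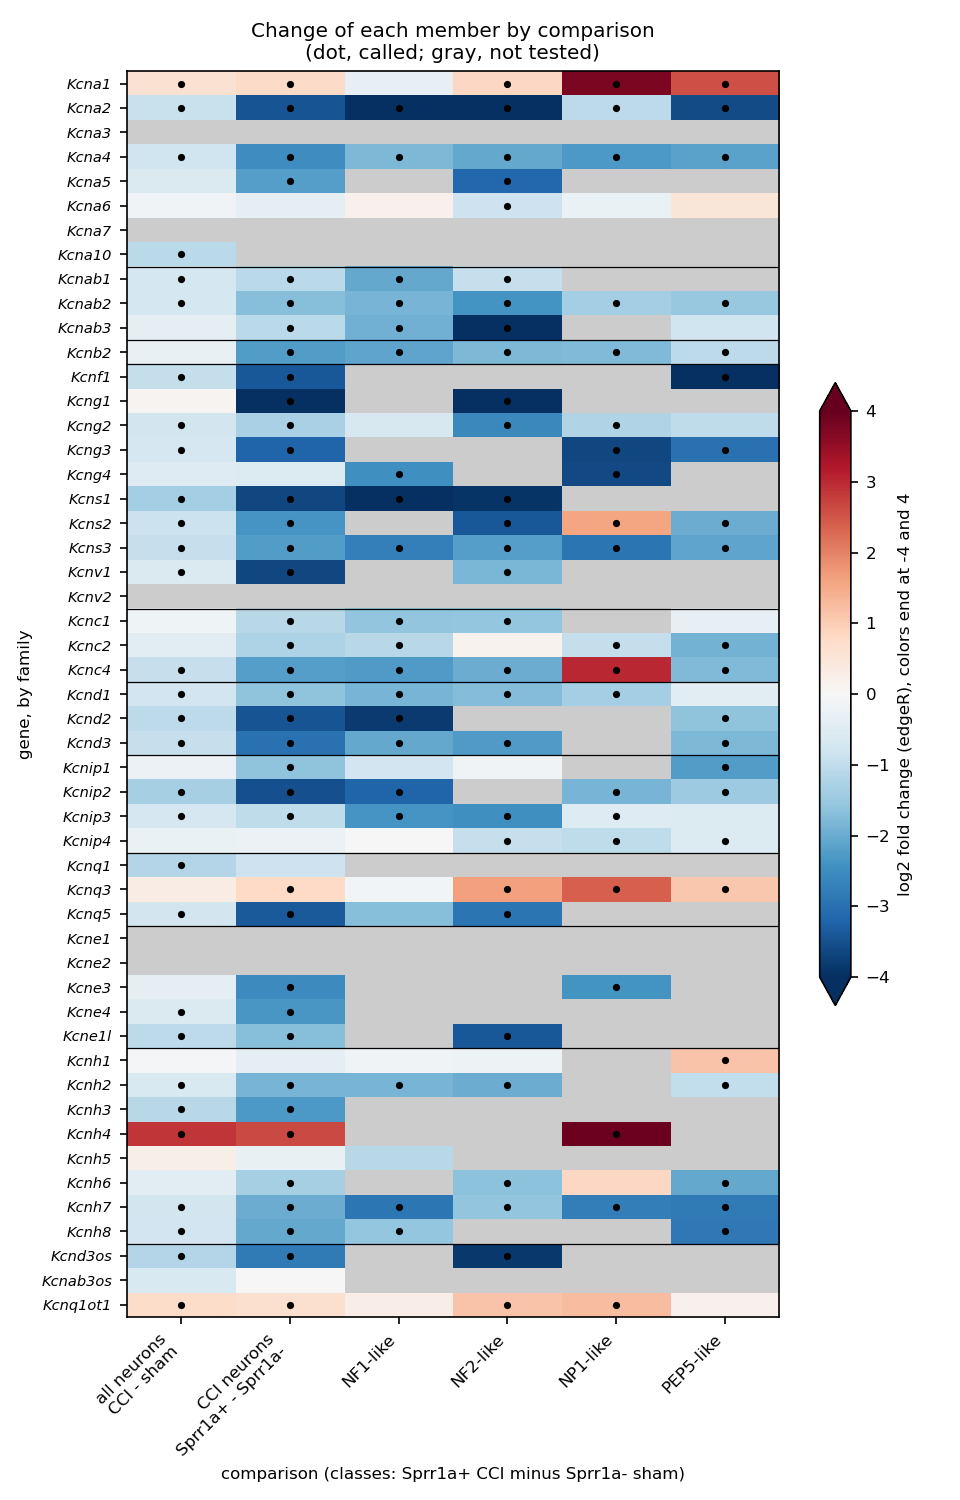
Log2 fold change of each member in each comparison; rows are genes grouped by family, columns are comparisons, color is the log2 change (ending at -4 and 4), dots mark called genes, and gray marks genes not tested. *Kcna2*, *Kcna4*, *Kcnab2*, *Kcnb2*, *Kcnh7*, and *Kcns3* were lower in all 4 classes of *Sprr1a*+ neurons.

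Of 16 members tested in all 4 classes, 6 were lower in every one: *Kcna2*, *Kcna4*, *Kcnab2*, *Kcnb2*, *Kcnh7*, and *Kcns3*. They include pore-forming subunits of the Kv1, Kv2, and EAG groups and the most abundant beta subunit. None of the 16 was higher in all 4, and *Kcna1* and *Kcnq3* were higher in 3. *Kcnc4* and *Kcns2* were lower in at least 1 class and higher in NP1-like neurons.

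In NF1-like neurons *Kcna2* was at 454 and 439 CPM in sham and 18 and 20.0 CPM in *Sprr1a*+ CCI neurons (change -4.25, SE 0.114, edgeR adjusted p = 6.23e-12). *Kcns1*, the silent subunit with its highest sham level here, was at 101 and 93.5 against 3.33 and 6.46 CPM (change -4.19, SE 0.198, edgeR adjusted p = 1.36e-09). *Kcnip2*, a KChIP gene, was at 47.1 and 32.0 against 2.22 and 6.46 CPM (change -3.20, SE 0.443, edgeR adjusted p = 0.00116, and 0.0625 without Male-CCI). *Kcnd2* had 2 UMIs in CCI against 142 in sham, a ratio of 0.0527 (95% interval 0.00632 to 0.194, counting error only). Not every gene of these neurons fell. *Kcna1* was at 233 and 235 against 146 and 151 CPM (change -0.33, not called), and *Kcnq3* at 134 and 155 against 113 and 95.2 CPM (change -0.12, SE 0.111, edgeR adjusted p = 0.401).

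In NF2-like neurons *Kcna2* was at 206 and 196 against 10.1 and 7.91 CPM (change -4.22, SE 0.139, edgeR adjusted p = 2.1e-08), and *Kcnab3*, a beta subunit, at 15.4 and 15.9 against 0.397 and 1.04 CPM (change -4.31, SE 0.351, edgeR adjusted p = 5.16e-06). *Kcns1* was at 11.4 and 9.61 against 0.397 and 0.833 CPM (change -3.93, edgeR adjusted p = 2.31e-05). *Kcng1* had 1 UMI in CCI against 77 in sham, a ratio of 0.0116 (95% interval 0.00029 to 0.0667). The genes that rose were *Kcna1*, from 65.6 and 75.3 to 112 and 98.7 CPM (change 0.82, SE 0.122, edgeR adjusted p = 0.000311), *Kcnq1ot1*, from 41.9 and 48.2 to 73.9 and 94.9 CPM (change 1.13, edgeR adjusted p = 5.8e-05), and *Kcnq3*, from 5.47 and 8.07 to 20.0 and 15.0 CPM (change 1.63, SE 0.251, edgeR adjusted p = 0.000379).

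NP1-like neurons, small nonpeptidergic neurons with little *Kcna1*, *Kcnc4*, or *Kcnq3* in sham, had both falls and rises. *Kcns3* was at 58.4 and 43.3 against 7.02 and 6.04 CPM (change -2.91, SE 0.180, edgeR adjusted p = 7.22e-22) and *Kcnh7* at 234 and 179 against 29.4 and 28.6 CPM (change -2.78, SE 0.121, edgeR adjusted p = 4.99e-27). The silent subunits *Kcng3*, at 3.37 and 5.37 against 0.287 and 0.318 CPM (change -3.65), and *Kcng4*, at 6.49 and 5.37 against 0.143 and 0.795 CPM (change -3.60), also fell. Among the 6 genes that rose, *Kcna1* went from 2.08 and 1.79 to 25.2 and 26.4 CPM (change 3.76, SE 0.289, edgeR adjusted p = 8.91e-18) and *Kcnc4* from 0.778 and 0.358 to 4.30 and 5.40 CPM (change 3.01, SE 0.577, edgeR adjusted p = 9.62e-06). The sham values of *Kcnc4* lay at or under the 3-UMI floor of these sums, 0.778 and 1.07 CPM, and its call was lost with doublets kept. *Kcnq3* rose from 1.04 and 0 to 3.15 and 3.02 CPM (change 2.38, edgeR adjusted p = 0.00134, and 0.0513 without Female-Sham). *Kcnq1ot1* rose by 1.22, and the silent subunit *Kcns2* by 1.57, a call lost without Male-Sham (edgeR adjusted p = 0.0909) or Female-CCI (0.0782). *Kcnh4* had 34 UMIs in CCI against 1 in sham, a ratio of 17 (95% interval 2.86 to 692). The sham and CCI libraries did not overlap for any of these genes, which with 2 libraries on each side adds little to the tests.

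In PEP5-like neurons, peptidergic neurons rich in *Kcna2* and *Kcnh8*, *Kcna2* was at 406 and 357 against 26.7 and 25.3 CPM (change -3.57, SE 0.094, edgeR adjusted p = 9.5e-25) and *Kcnh8* at 107 and 91.2 against 11.2 and 10.9 CPM (change -2.86, SE 0.115, edgeR adjusted p = 4.97e-20). *Kcng3* was at 3.63 and 2.54 against 0.140 and 0.490 CPM (change -2.98), and *Kcnf1* had 1 UMI in CCI against 80 in sham, a ratio of 0.0194 (95% interval 0.000486 to 0.111). *Kcna1* rose from 8.40 and 6.35 to 38.9 and 32.2 CPM (change 2.59, SE 0.149, edgeR adjusted p = 5.22e-16). *Kcnh1*, at 2.04 and 1.86 against 3.22 and 3.76 CPM (change 1.13), lost its call without Female-CCI (edgeR adjusted p = 0.0539), and *Kcnq3*, at 2.95 and 1.44 against 3.50 and 3.76 CPM (change 1.07), without Female-Sham (0.192), Male-CCI (0.0735), or Female-CCI (0.0876).

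**Figure D5:**
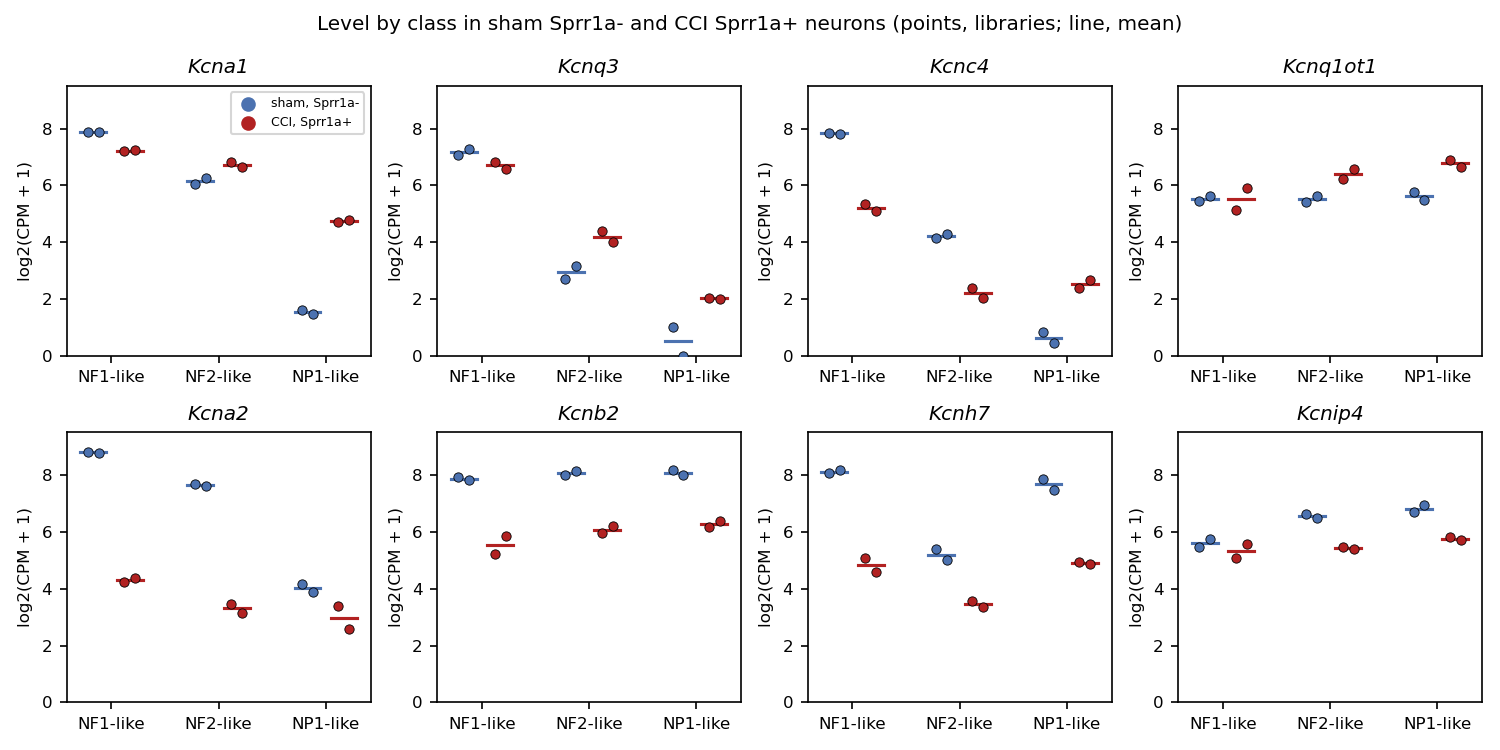
Level of 8 members, as log2(CPM + 1), in NF1-, NF2-, and NP1-like neurons of sham (*Sprr1a*-) and CCI (*Sprr1a*+), with 1 point per library and a line at the mean. *Kcna1*, *Kcnq3*, *Kcnc4*, and *Kcnq1ot1* lie higher in CCI than in sham in NP1-like neurons, while *Kcna2*, *Kcnb2*, and *Kcnh7* lie lower in all 3 classes.

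The change was also compared between NP1-like and large neurons. A test of the difference itself, added after the class comparisons were seen, called 14 of 34 members between NP1- and NF1-like neurons (41.2%, against 32.0% of 12593 genes) and 16 of 37 between NP1- and NF2-like neurons (43.2%, against 24.0% of 12576 genes). The difference for *Kcnc4* was 5.35 (SE 0.476, edgeR adjusted p = 5.83e-21) against NF1-like neurons, where *Kcnc4* fell from 231 and 224 to 39.5 and 32.9 CPM. For *Kcna1* it was 4.13 (SE 0.289, edgeR adjusted p = 1.26e-29) and for *Kcna2* 3.29 (SE 0.265, edgeR adjusted p = 1.54e-23). For both Kv1 genes the levels of NP1- and NF1-like *Sprr1a*+ neurons were closer to each other than the sham levels were. *Kcnip4* had the opposite order, a difference of -0.98 (SE 0.170, edgeR adjusted p = 3.56e-07), since it fell by 1.02 in NP1-like neurons and hardly moved, by -0.01, in NF1-like neurons.

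In the 5 CCI-ind-like clusters, where most *Sprr1a*+ neurons lay, *Kcna2* was low throughout, at 5.94 to 25.3 CPM in either CCI library. *Kcna1* ranged from 28.8 to 84.5 CPM with its highest value in cluster 16. *Kcnc4* was at 28.3 and 29.5 CPM in cluster 17 and at 1.67 to 10.6 CPM in the others, and *Kcnip4* at 147 and 143 CPM in cluster 0 and 14.5 and 19.9 CPM in cluster 21. *Kcnd3* was at 14.5 and 15.6 CPM in cluster 16 and at 1.26 to 3.35 CPM elsewhere. The clusters thus had unequal levels of *Kcnc4*, *Kcnip4*, and *Kcnd3*, while *Kcna2* was low in every cluster. These clusters were built on many of the same genes, so the values carry no test.

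The *Sprr1a*- neurons of CCI were then compared with the same *Sprr1a*- sham sums, class by class, and here few members were called. They numbered 1 lower and 1 higher in NF1-like (of 33 tested, 1.11% of genes called in either direction), 2 and 0 in NF2-like (of 33, 1.92%), 1 and 1 in NP1-like (of 17, 3.99%), 1 and 1 in NP2-like (of 30, 4.46%), and 0 and 3 in NP3-like neurons (of 24, 2.56%). They numbered 1 and 2 in PEP1-like (of 33, 5.18%), 0 and 3 in PEP2-like (of 26, 4.37%), 0 and 1 in PEP3/4-like (of 32, 3.57%), 0 and 0 in PEP5-like (of 31, 3.36%), and 0 and 0 in cLTMR-like neurons (of 32, 1.71%). In that order of classes, 6.06%, 6.06%, 11.8%, 6.67%, 12.5%, 9.09%, 11.5%, 3.125%, 0%, and 0% of the members tested were called. Except in PEP3/4-, PEP5-, and cLTMR-like neurons, this was above the share of all genes, from at most 3 calls in a class. Where edgeR called 0, members at an unadjusted p under 0.05 were 2 higher in NF2-like, 3 lower in NP3-like, 3 lower in PEP2-like, 6 lower in PEP3/4-like, 1 lower and 4 higher in PEP5-like, and 2 lower and 5 higher in cLTMR-like neurons, and DESeq2 also called 0 of them. The median change of the members lay between -0.07 and 0.16. The lowest called change was -1.13, and higher calls outnumbered lower ones, 12 to 6. Among all genes, too, higher calls outnumbered lower ones in each class, as with 311 to 225 in PEP2-like neurons. With neurons of any *Sprr1a* UMI taken out, NF2-like neurons fell below the minimum of cells. Over the other 9 classes 0 were called lower and 8 higher by edgeR, with 32 lower and 41 higher at an unadjusted p under 0.05. None of the lower calls outside NF2-like neurons held there, and the 2 of NF2-like neurons were not tested. With doublets kept 12 were lower and 12 higher, and with DESeq2 2 were lower and 11 higher. Most of these calls lost significance or size when 1 library was left out.

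*Kcns1* was lower in NF2-like neurons, at 11.4 and 9.61 against 4.08 and 5.13 CPM (change -1.13, edgeR adjusted p = 0.0415, and 0.254 without Male-Sham), and in NP2-like neurons, at 5.47 and 5.69 against 3.47 and 3.46 CPM (change -0.71, edgeR adjusted p = 0.0105, and 0.0548 without Male-CCI). *Kcns3* was lower in NP1-like neurons, at 58.4 and 43.3 against 33.3 and 26.2 CPM (change -0.80, edgeR adjusted p = 0.0184, and 0.358 without Male-Sham). *Kcns2* was lower in PEP1-like neurons, at 9.27 and 7.70 against 4.79 and 5.83 CPM (change -0.64, edgeR adjusted p = 0.0183, lost without Male-Sham at 0.121 or Male-CCI at 0.0619). The lower calls of edgeR were thus mostly silent *Kcns* subunits, but with DESeq2 each of these *Kcns* calls was lost. DESeq2 kept the *Kcnip3* calls given next. Without barcodes held by another library *Kcns1* in NF2-like neurons changed by -0.43 and was not called (edgeR adjusted p = 0.797). *Kcnip3* was lower in NF1-like neurons, at 121 and 132 against 78.3 and 82.4 CPM (change -0.61, edgeR adjusted p = 0.00449, and 0.0577 without Male-CCI), and in NF2-like neurons, at 208 and 198 against 154 and 115 CPM (change -0.55, edgeR adjusted p = 0.0265, 0.110 without Male-Sham, and a change of only -0.37 without Female-CCI).

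*Kcng1* was called higher in 2 of the peptidergic classes without *Sprr1a*, PEP1- and PEP2-like. In PEP3/4- and PEP5-like neurons 0 silent subunits were called. In PEP1-like neurons it went from 5.72 and 8.64 to 15.7 and 17.2 CPM (change 1.2, SE 0.171, edgeR adjusted p = 0.00246, and 0.0573 without Female-CCI), and in PEP2-like neurons from 11.3 and 12 to 24.2 and 39.1 CPM (change 1.44, SE 0.215, edgeR adjusted p = 0.00253, 0.0723 without Male-Sham, and 0.0631 without Female-Sham). Between *Sprr1a*+ and *Sprr1a*- neurons of CCI the change of *Kcng1* had the opposite sign. *Kcnb2* was higher in NF1-like neurons, at 241 and 228 against 327 and 362 CPM (change 0.59, edgeR adjusted p = 0.003), and in NP3-like neurons, at 183 and 184 against 283 and 282 CPM (change 0.57, edgeR adjusted p = 0.000322). *Kcnq3* rose in NP3-like neurons, from 3.86 and 6.36 to 19.8 and 13.2 CPM (change 1.67, SE 0.238, edgeR adjusted p = 0.000814), and *Kcna1* in PEP1-like neurons, from 12.4 and 13.8 to 24.8 and 18.7 CPM (change 0.74, edgeR adjusted p = 0.00634). Without barcodes held by another library *Kcnb2* in NF1-like neurons kept a change of 0.53 but not its call. With neurons of any *Sprr1a* UMI taken out, *Kcnb2* in NF1-like and *Kcnq3* in NP3-like neurons lost their calls. Both were also lost with doublets kept, and *Kcnq3* with DESeq2. *Kcng1* and *Kcna1* in PEP1-like neurons lost theirs without neurons of any *Sprr1a* UMI, while *Kcng1* in PEP2-like neurons kept its call. That of *Kcna1* was also lost with a stricter mitochondrial limit or with genes that change with CCI left out of the clustering.

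*Kcnq1ot1* was higher in NP1-like (change 1.01, edgeR adjusted p = 0.000322), PEP3/4-like (0.60, 0.000202), and NP3-like neurons (0.56, 0.00633), the last of which lost its call without Male-Sham (0.0957), Female-Sham (0.157), or Male-CCI (0.0671). In PEP2-like neurons *Kcnv1* (change 0.58) lost its call without Male-CCI (edgeR adjusted p = 0.116) and *Kcnab1* (change 0.67) without Male-Sham (0.47, under the limit on size) or Male-CCI (0.0601). *Kcne3* in NP2-like neurons (change 1.32) lost its call without Female-Sham (change 1.02) or Male-CCI (1.11). Without barcodes held by another library, calls were lost for *Kcne3* in NP2-like (edgeR adjusted p = 0.146) and *Kcnab1* in PEP2-like neurons (0.114). *Kcnq1ot1* in NP3-like neurons then changed by 0.49, under the limit on size. The call of *Kcnq1ot1* in NP1-like neurons was lost with DESeq2 or with neurons of any *Sprr1a* UMI taken out.

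A list of 22 genes whose products bind, place, or regulate these channels was followed beside them. Over all neurons 6 were lower (27.3%, against 12.7% of genes) and 2 higher (9.09%, against 15.2%), with a median change of -0.26, and in *Sprr1a*+ neurons 12 were lower (54.5%, against 24.7%) and 4 higher (18.2%, against 20.9%), with a median of -0.60. The 8 genes called over all neurons had the same direction in *Sprr1a*+ neurons. *Dpp10*, an auxiliary subunit of Kv4, was at 69.8, 67.5, 25.1, and 28.9 CPM (change -1.29) and at 52.8 and 56.3 CPM in *Sprr1a*- against 1.53 and 1.89 CPM in *Sprr1a*+ neurons of CCI (change -4.83). It was thus lower, as the Kv4 genes were. *Amigo1*, a partner of Kv2, was at 61.9 and 55.4 against 21.7 and 20.3 CPM in CCI (change -1.31), and *Lgi3*, a secreted protein of the Kv1 complex, at 24.8 and 15.9 against 2.43 and 2.29 CPM (change -2.92). *Cntnap1* (change -2.08), which builds the paranodal junction, *Akap5* (-3.42), a kinase anchor that binds Kv7 channels, and *Nedd4l* (-1.83), a ubiquitin ligase, were also lower. *Ank3*, the ankyrin that holds Kv7 channels at the axon initial segment, was higher, at 208, 195, 338, and 332 CPM over all neurons (change 0.79) and 235 and 237 against 425 and 426 CPM in CCI (change 1.02). *Rest*, a repressor of neuronal genes that is known to act on potassium channel genes, was at 2.27, 2.27, 5.91, and 5.79 CPM over all neurons (change 1.42) and at 2.92 and 3.07 against 8.45 and 8.47 CPM in CCI (change 1.67). The other genes of the list called higher in *Sprr1a*+ neurons were *Lgi2* (change 0.98) and *Cntn2* (0.66), neither called over all neurons.

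Promoter sequences from RefSeq (GRCm38.p6, 250 bases before to 50 after the start site) were matched for 37 of the 51 genes, giving 53 promoters, and searched on both strands for 5 motifs. The letters of the left part of the *Rest* element RE1, TCAGCACC, were in 1 of the 53 (1.89%, against 1.65% of all 32851 promoters), and those of its right part, GGACAGC, in 6 (11.3%, against 6.56%). The AP-1 letters TGANTCA were in 3 (5.66%, against 7.81%), the E-box CACGTG in 4 (7.55%, against 7.15%), and the cyclic AMP element TGACGTCA in 0 (against 1.79%). The motifs do not contain each other. The promoters of 4 genes with such letters are shown, chosen after the matches were seen: *Kcnh6* both parts of RE1, *Kcnip3* the AP-1 letters and the right part of RE1, *Kcnq5* the right part of RE1, and *Kcnh4*, the member that rose most, an E-box. Those of *Kcnab1*, *Kcne1l*, *Kcne3*, *Kcne4*, and *Kcnip4* also held letters of these motifs and are not printed. The printed sequences read 5′ to 3′ on the strand of the gene, and capitals mark the motifs.
Kcnh6 (chr11:106007898-106008197, plus strand): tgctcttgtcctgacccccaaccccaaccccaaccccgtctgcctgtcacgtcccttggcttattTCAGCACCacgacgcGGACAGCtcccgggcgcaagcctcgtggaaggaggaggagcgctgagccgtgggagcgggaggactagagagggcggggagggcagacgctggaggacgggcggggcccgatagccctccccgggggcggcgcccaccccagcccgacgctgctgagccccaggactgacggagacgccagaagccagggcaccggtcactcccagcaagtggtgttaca
Kcnip3 (chr2:127522045-127522344, minus strand): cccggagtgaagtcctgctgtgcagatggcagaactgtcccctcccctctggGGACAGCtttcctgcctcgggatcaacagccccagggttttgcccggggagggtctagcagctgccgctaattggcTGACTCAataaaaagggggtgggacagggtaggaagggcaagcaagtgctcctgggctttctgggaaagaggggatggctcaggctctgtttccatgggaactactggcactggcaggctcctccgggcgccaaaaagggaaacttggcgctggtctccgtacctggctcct
Kcnq5 (chr1:21961893-21962192, minus strand): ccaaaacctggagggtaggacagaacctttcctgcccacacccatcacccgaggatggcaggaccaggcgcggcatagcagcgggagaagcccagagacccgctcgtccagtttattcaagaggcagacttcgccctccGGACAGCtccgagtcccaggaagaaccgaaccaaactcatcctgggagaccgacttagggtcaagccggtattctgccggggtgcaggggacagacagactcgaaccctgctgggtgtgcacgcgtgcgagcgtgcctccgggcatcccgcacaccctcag
Kcnh4 (chr11:100759729-100760028, minus strand): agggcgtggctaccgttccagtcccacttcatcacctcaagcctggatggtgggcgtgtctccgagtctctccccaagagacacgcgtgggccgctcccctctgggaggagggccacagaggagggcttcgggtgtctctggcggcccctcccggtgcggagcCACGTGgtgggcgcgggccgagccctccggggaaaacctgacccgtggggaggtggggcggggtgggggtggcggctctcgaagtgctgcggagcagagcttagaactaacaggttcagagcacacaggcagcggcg
In *Kcnh6* the parts of RE1 begin 185 and 170 bases before the start site. *Kcnh6* was at 4.85, 4.91, 3.12, and 3.72 CPM over all neurons (change -0.46, not called) and at 4.85 and 5.49 against 1.65 and 1.98 CPM in *Sprr1a*+ neurons of CCI (change -1.34, edgeR adjusted p = 1.34e-06). These matches are letters in a window and show no binding.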

How the data were processed

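The authors aligned the reads of Chromium 3′ libraries to mm10 and counted UMIs with Cell Ranger (version 3.0.2 per the file headers), and deposited UMI counts of 31053 genes per called cell, not normalized. The alignment and counting were not repeated here. Members and gene lists were chosen with earlier results of these data known. Of the 55 genes that the symbol prefixes matched, 4 are not reported here and enter no count of members.

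Scrublet in scanpy 1.11.5 ranked doublets at an expected rate of 0.1. Its automatic threshold did not work in these libraries, so the top-ranked cells were removed in the number of the study. Cells with under 1500 genes or over 10% mitochondrial UMIs were left out. Seurat 5.3.0 integrated the libraries (3000 variable genes, 20 components, resolution 0.8). Clusters were named "-like" where at least 3 markers were present in 10% of cells and 2 times above other cells. A neuron was *Sprr1a*+ where the natural log of UMIs per 10000 plus 1 was above 1, and *Sprr1a* was left out of tests.

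UMI counts were summed per library and class with at least 10 cells, and edgeR 4.0.16 (robust quasi-likelihood test, TMM, filter on low counts) compared them in R 4.3.3. The male and female library are the replicates, and p-values measure the spread between these pools only. A library with 0 UMIs in all neurons would lie under 0.0158 to 0.0188 CPM (3 UMIs). A ratio with 1 to 3 UMIs has an exact 95% interval, and intervals and this floor cover counting error only. Fits were tested on simulated data.

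Named genes were called members, up to 12 per direction for all neurons and the *Sprr1a* comparison and up to 4 per class and direction, the 3 highest per family, class-specific members, 14 members named throughout, and partner genes called in both main comparisons. *Kcna5*, *Kcnh6*, and some others were added after their values were seen. Alternatives were DESeq2 1.42.0, other scaling, no filter, sex as a block, other limits on cells and *Sprr1a*, other clusterings, each library left out, and, added after seeing the data, cells with shared barcodes and clusters with glial markers left out. Whether same-numbered libraries of sham and CCI deviate together was checked once: the male minus female differences of the 2 surgeries correlated at r = 0.18 over 16075 genes, and the shared number stands only for sex.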

Additional observations from a re-analysis of the deposited data

Results flagged for a closer look

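The results below are those in which the change of a member from *Sprr1a*- sham to *Sprr1a*+ CCI neurons differed between NP1-like and large neurons by a test of the difference itself. Values are the change in NP1-like minus that in the other class, on the log2 scale, for members tested in both classes. The test was added after the class comparisons were seen, and the edgeR adjusted p is over all genes. Of all genes, 32.0% were called against NF1-like and 24.0% against NF2-like neurons.

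Against NF1-like neurons, 10 members differed. The difference was 5.35 for *Kcnc4*, 4.13 for *Kcna1*, 3.29 for *Kcna2*, 2.53 for *Kcnq3*, 1.83 for *Kcnip3*, 1.22 for *Kcnip2*, 1.01 for *Kcnq1ot1*, 0.57 for *Kcnd1*, 0.54 for *Kcnab2*, and -0.98 for *Kcnip4*. The edgeR adjusted p was 0.047 for *Kcnip2*, 0.0198 for *Kcnd1*, and 0.0185 for *Kcnq1ot1*, and below these for the others. *Kcnc4*, a Kv3 gene, was the only 1 of the 10 called in opposite directions in the 2 classes. Its sham levels in NP1-like neurons, 0.778 and 0.358 CPM, lay at or under the 3-UMI floor there, 0.778 and 1.07 CPM. Its call in NP1-like neurons was lost with doublets kept.

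Against NF2-like neurons, 11 members differed. The difference was 5.04 for *Kcnc4*, 4.97 for the silent subunit *Kcns2*, 3.24 for *Kcna2*, 2.98 for *Kcna1*, 2.50 for *Kcnh6*, 1.96 for *Kcnip3*, 1.40 for *Kcng2*, 1.10 for *Kcnab2*, 0.60 for *Kcna6*, -1.10 for *Kcnc2*, and -1.15 for *Kcnh7*. *Kcnc4* and *Kcns2* were called in opposite directions in the 2 classes, higher in NP1-like and lower in NF2-like neurons. With doublets kept, both lost their call in NP1-like neurons. Without barcodes held by another library, *Kcnc4* lost its call in NF2-like neurons (change -1.60, edgeR adjusted p = 0.0883). The NP1-like neurons of sham and CCI came mostly from different clusters, 25 and 23, and the part of this in the differences was not tested.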

How the results depend on the processing

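The call for all neurons stayed at 26 to 30 of 46 members when each library was left out, against 30. The count for *Sprr1a*+ against *Sprr1a*- neurons was 38, and 26 (23 lower and 3 higher) with any *Sprr1a* UMI as the limit. The class counts moved more. For *Sprr1a*+ CCI against *Sprr1a*- sham neurons the count over NF1-, NF2-, and NP1-like neurons was 70 (62 to 72 without each library). It was 46 with at most 5% mitochondrial UMIs, where only NF2- and NP1-like neurons reached the minimum of cells. It was 160 with doublets kept, over 9 classes, and 164 with genes that change with CCI left out of the clustering, over 7 classes, and within the same 3 classes 74 and 69. For PEP5-like neurons it was 22 (18 to 24). For *Sprr1a*- neurons it was 18 (17 to 27 without each library, with 27 without Male-CCI), 30 without a filter on low counts, and 8 with neurons of any *Sprr1a* UMI taken out. The count of 8 is over 9 classes, since NF2-like neurons then fell below the minimum of cells. Apart from the replicate block given next, other numbers of calls were within 1.5 times the value reported.

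With the replicate block (sex), the counts were 30 for all neurons, 70 for *Sprr1a*+ neurons by class, 22 for PEP5-like neurons, and 30 for *Sprr1a*- neurons (9 lower and 21 higher, against 6 and 12), and 37 for *Sprr1a*+ against *Sprr1a*- neurons without the replicate block. With only 2 pairs, r = 0.18 says little on whether the numbers pair the libraries.

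With any *Sprr1a* UMI as the limit, directions turned between *Sprr1a*+ and *Sprr1a*- neurons for *Kcnip4* (0.25), *Kcne1l* (0.14), *Kcna5* (0.065), and *Kcnab1* (0.0055), for *Kcnc1* in NF1-like neurons (0.029), and for *Kcnab1* in *Sprr1a*- PEP2-like neurons (-0.076). The causes were not tested. Of the other values of single genes under alternatives, 2738 stayed on their side of the threshold, 164 lost and 2 gained a call, and 9 levels of single genes in a class moved by more than the spread of the libraries. Members under about 1 CPM, such as *Kcna10* and the *Kcne* genes, are limited by depth, and each surgery has 2 pools of mice.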

Other observations

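SGC-like cells, of which a library had 109 to 186, also held some of these genes, and their values belong to no comparison of neurons. With the sham libraries first (male, then female) and the CCI libraries after them, *Kcna1* was at 24.2, 21.8, 109, and 64.7 CPM in SGC-like cells, from 27, 15, 76, and 36 UMIs. *Kcna6* was at 124, 115, 202, and 162 CPM, from 138, 79, 141, and 90 UMIs. Both were higher in the CCI than in the sham libraries, without a test. *Kcna2* was at 144, 142, 169, and 146 CPM there and *Kcnh2*, an erg-type gene, at 43.9, 43.6, 53.1, and 43.1 CPM. RNA from neurons in the suspension was not separated from that of these cells. Neurons of all classes held *Kcna6*, and its level in all neurons was 58.4 to 70.1 CPM, below that in SGC-like cells of every library.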
